A study of Mus musculus with 7 samples.

Results

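The genes of N-linked glycan synthesis and processing were followed through hematopoietic stem and progenitor cells of mice labelled as B4galt1 knockout or wild type (WT). The 44 genes were taken by symbol from a list covering the N-glycosylation enzymes, the enzymes and transporters that supply their sugar nucleotides and the lectins of the endoplasmic reticulum (ER). All 44 were present among the 32285 genes of the deposited count tables. The study sorted lineage-negative, Sca-1-positive, Kit-positive bone marrow cells (LSK cells, the compartment that holds hematopoietic stem cells and multipotent progenitors) and sequenced single cells from the 3′ end of their transcripts. Of the 7 libraries, 3 were labelled knockout (genotype 129S1/C57Bl/6, B4-/-, described as a full knockout) and 4 WT (genotype 129S1/C57Bl/6). No treatment is named in the labels. The age and sex of the mice, the part of B4galt1 that was deleted and whether a library came from 1 animal or several are not given in the sources used here, so each p-value measures the spread between these libraries. The libraries are called KO1 to KO3 and WT1 to WT4 below, after the replicate numbers in their labels.

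N-glycans are built on a lipid carrier in the ER membrane from nucleotide sugars and dolichol-linked sugars, and the oligosaccharyltransferase moves the finished precursor as a block onto asparagines of proteins entering the ER. Glucosidases and mannosidases then trim it while the lectins calnexin and calreticulin hold the folding protein, and Golgi enzymes remove mannose, add N-acetylglucosamine branches and core fucose, and extend the branches with galactose and sialic acid. B4galt1, the gene named in the knockout label, encodes a Golgi enzyme that adds galactose to those branches. Most members act before that step or supply its galactose, others make or carry the sialic acid that caps the added galactose, and B4galt1 is not a member.

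The libraries held between 14970791 and 89747946 unique molecular identifiers (UMIs, each standing for 1 captured transcript). Cells with at least 1000 UMIs, at least 500 genes and at most 10% mitochondrial UMIs were kept, which left 1172 to 8862 cells per library, 24430 in all, with median depths of 8046 to 11083.5 UMIs. The barcodes fell into 2 lists of sequences that overlapped only in part: KO3 and WT4 used 1 list (list B), and KO1, KO2 and WT1 to WT3 the other (list A). In a principal component analysis of summed counts, component 1 held 65.8% of the variance and separated libraries by list, not by label. Every label comparison therefore carried the list as a covariate, and every comparison of cell groups was made within libraries. KO3 and WT4 shared 68 kept barcodes, 0.992% of the smaller library, while the other 20 pairs of libraries shared at most 2. They are the only pair on list B and hold the most kept cells, 6855 and 8862. The number of shared barcodes expected by chance was not computed. Over all kept cells B4galt1 stood at 53.2, 53.1 and 31.8 CPM (counts scaled to 1e+06 UMIs of the cells summed) in KO1 to KO3 and at 54.1, 60.8, 52.1 and 39.5 CPM in WT1 to WT4 (log2 difference -0.14, adjusted p = 0.537, edgeR). The label groups overlapped, and counts from the 3′ end do not check a deletion elsewhere in the gene, so the libraries are called knockout-labelled throughout. Kit and Ly6a, the genes behind the sort, summed to 193 to 210 CPM in the knockout-labelled libraries and to 211 to 320 CPM in the WT libraries. RNA of sorted-out lineages was also present over all kept cells, with 4 neutrophil genes reaching 1042 CPM in 1 WT library and 672 CPM in 1 knockout-labelled library, against at most 18.4 CPM in the stem-gated cells described next. Other such RNA remained in stem-gated cells. There, 2 red cell genes reached 280 CPM in a WT library. The 4 T and NK cell genes reached 143 CPM in a knockout-labelled library and 174 CPM in a WT library.

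Cell groups were taken from marker genes that include no member. A cell passed the stem gate with UMIs of at least 4 of 12 stem cell genes (Hlf, Mecom, Procr and others). The granule gate took at least 5 of 9 granulocyte-monocyte genes, called granule genes below. They were Mpo, Elane, Prtn3, Ctsg, Ms4a3, Prss57, Fcnb, Trem3 and Cebpe, and the name stands for the list as a whole. The monocyte-dendritic gate took at least 4 of 10 genes (Irf8, Csf1r, Ly86 and others). The lymphoid gate took at least 4 of 11 genes (Dntt, Flt3, Il7r and others). The 4481 cells that passed several gates were left out of the gated groups. The names say which markers a cell carried and are not an independent identification of cell type. Just inside the gates, 4302 cells had exactly the stem minimum and 1050 exactly the granule minimum. Just outside, 5427 and 2584 cells had 1 marker fewer.

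Over all kept cells, 43 members passed the filter on low counts. Mgat3, which adds the bisecting N-acetylglucosamine, was near 0 with 8 UMIs in all libraries together and was not tested. Total UMIs of the other members ran from 1449 for Alg12, an ER mannosyltransferase of precursor assembly, to 179568 for Calr, the lectin chaperone calreticulin. A level in CPM here counts UMIs of 3′ libraries, which may include intronic reads, and is read within a gene across samples.

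The widest differences among the cell groups lay between granule-gated and stem-gated cells of the same library. Members of the ER steps were higher in granule-gated cells, by up to 4.12-fold for Calr, while several Golgi and sugar nucleotide genes were lower. In 6 libraries with at least 20 cells on both sides (20 to 384 granule-gated cells each, WT2 left out with 14), 21 of 43 members tested were higher and 4 lower. Of all 11344 genes tested, 24% were higher and 29.9% lower. The median log2 difference was 0.37 over the members and -0.08 over all genes (edgeR quasi-likelihood test with the library as a block, Benjamini-Hochberg adjusted over all genes, threshold 0.05).

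Calr rose the most of the called members. Calreticulin is the soluble ER lectin that binds monoglucosylated glycans on folding proteins. Its level in granule-gated cells had a lowest value of 1300, a median of 1436 and a highest value of 2213 CPM, against 327, 388 and 481 CPM in stem-gated cells, so that the lowest granule-gated library lay above every stem-gated one. The log2 difference was 2.04 (SE 0.10, adjusted p = 3.43e-12, edgeR, higher in 6 of 6 libraries). Its membrane-bound relative Canx, calnexin, was higher by 0.56 (adjusted p = 0.000325, edgeR).

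Promoters of ER chaperone genes are known for the ER stress response element, a paired motif bound by NF-Y and ATF6, and the Calr promoter holds a copy. RefSeq windows on GRCm38.p6, from 250 bases before to 50 bases after the gene start, were matched for 37 of the 44 members. The letters CCAAT followed by CCACG after a gap of 9 bases, searched on both strands, were found in 3 of these 37 members (8.11%), Calr, Canx and Alg12, and in 37 of 27025 genes with a window (0.137%). The 250 bases before each start are shown because Calr and Canx are the ER lectins of the list and share this spaced pair. Capitals mark the outer letters of the pair, 5′ to 3′ on the gene's strand, which is the minus strand for all 3. They are chr8:84846932-84847181 for Calr (where the match reads on the opposite strand), chr11:50325674-50325923 for Canx and chr15:88819319-88819568 for Alg12.
Calr: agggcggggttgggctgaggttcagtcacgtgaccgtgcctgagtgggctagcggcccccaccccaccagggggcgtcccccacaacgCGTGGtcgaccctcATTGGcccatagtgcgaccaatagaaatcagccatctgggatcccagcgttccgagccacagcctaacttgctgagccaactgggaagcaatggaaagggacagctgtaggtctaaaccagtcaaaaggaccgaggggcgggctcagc
Canx: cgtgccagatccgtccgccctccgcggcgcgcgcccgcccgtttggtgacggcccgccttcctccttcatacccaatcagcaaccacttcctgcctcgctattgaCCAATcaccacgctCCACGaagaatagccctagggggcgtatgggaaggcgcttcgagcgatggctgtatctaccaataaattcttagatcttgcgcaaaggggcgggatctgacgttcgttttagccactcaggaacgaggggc
Alg12: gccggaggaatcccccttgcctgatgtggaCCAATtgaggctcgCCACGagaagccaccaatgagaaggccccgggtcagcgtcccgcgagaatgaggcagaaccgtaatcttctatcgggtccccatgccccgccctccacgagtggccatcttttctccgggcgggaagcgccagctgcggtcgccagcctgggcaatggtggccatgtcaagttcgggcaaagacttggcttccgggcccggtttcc
The first base of the pair lies 162 bases before the start in Calr, 145 in Canx and 220 in Alg12. Of these 3 genes, Calr and Canx rose in granule-gated cells, and Alg12 had a log2 difference of -0.07 (adjusted p = 0.856, edgeR) at a mean of 3.85 against 4.39 CPM. Other motifs linked to ER stress were not found in the members' windows: ATTGG followed by CCACG after a gap of 1 base (0.0444% of genes) and TGACGTGG (0.714% of genes), each on both strands. The E-box CACGTG was present in Prkcsh, Calr, Alg1, Galk1 and Galt, 13.5% of members with a window against 8.09% of genes. A match is a description of the letters in the window and not a measured site.

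All 6 subunits of the oligosaccharyltransferase in the list were higher in granule-gated cells, with a median log2 difference of 1.02. Rpn1, a ribophorin subunit of the complex, had a lowest, median and highest level of 118, 190 and 254 CPM in granule-gated cells against 43.4, 63.6 and 85.6 CPM in stem-gated cells. The ranges did not overlap, and the log2 difference was 1.58 (SE 0.13, adjusted p = 4.42e-09, edgeR). Ddost, a non-catalytic core subunit, had levels of 98.8, 174 and 358 CPM against 34.9, 53.0 and 149 CPM. Its ranges overlapped across libraries, with both list B libraries high on both sides, while within each of the 6 libraries the granule-gated cells were higher (log2 difference 1.46, SE 0.14, adjusted p = 4.34e-08, edgeR). Rpn2 was higher by 1.09, Dad1 by 0.96, and the catalytic subunits Stt3b by 0.82 and Stt3a by 0.66 on the log2 scale.

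Among the 7 genes of ER trimming and its lectins, 6 were higher, with Man1b1, an ER mannosidase, at 0.05 and not called. Mogs, the glucosidase that removes the outermost glucose, had levels of 19.5, 54.6 and 85.2 CPM in granule-gated cells against 7.73, 23.4 and 33.4 CPM in stem-gated cells (log2 difference 1.45, SE 0.17, adjusted p = 6.46e-07, edgeR). In WT3 its level was 26.6 against 25.5 CPM, close to no difference, and the other 5 libraries were clearly higher. Uggt1, the glucosyltransferase that re-tags unfolded proteins, was higher by 0.79, the glucosidase II subunits Ganab by 0.68 and Prkcsh by 0.61.

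Precursor assembly moved less. Of its 8 genes, 3 were higher: Alg3 by 0.78, Alg5, which makes dolichol-linked glucose, by 0.63, and Dpagt1, which starts the chain, by 0.63. Of the mannose phosphate genes, Mpi was higher by 0.82 and Pmm2 was not called. Galk1, the kinase of galactose salvage, was higher by 0.98, and Galt, the next enzyme, had a log2 difference of -0.10 (adjusted p = 0.664, edgeR).

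The Golgi enzymes and sugar nucleotide genes divided. Mgat5, which makes the branch that leads to polylactosamine chains, was higher by 1.07, Mgat2, which opens the second arm, by 0.69, and the mannosidase Man2a1 by 0.48. Lower were the mannosidases Man2a2 (-0.46, SE 0.12, adjusted p = 0.00346, edgeR) and Man1a2 (-0.43, SE 0.11, adjusted p = 0.00251, edgeR). The sialic acid pathway went both ways. Nans, the sialic acid synthase, had levels of 55.2, 86.6 and 126 CPM in granule-gated cells against 24.9, 32.1 and 58.1 CPM in stem-gated cells and was higher in 6 of 6 libraries by 1.28. Cmas, which activates sialic acid with CMP, had levels of 18.6, 28.4 and 51.3 CPM against 32.1, 50.9 and 91.0 CPM. It was lower in 6 of 6 libraries, with 51.3 against 51.5 CPM in KO2 (log2 difference -0.71, SE 0.14, adjusted p = 0.000292, edgeR). Gmds, the first enzyme of GDP-fucose synthesis, was lower by -0.42 (SE 0.11, adjusted p = 0.00288, edgeR). Fut8, which adds the core fucose, was higher in 3 libraries and lower in 3 (log2 difference -0.24, adjusted p = 0.406, edgeR).

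**Figure D1:**
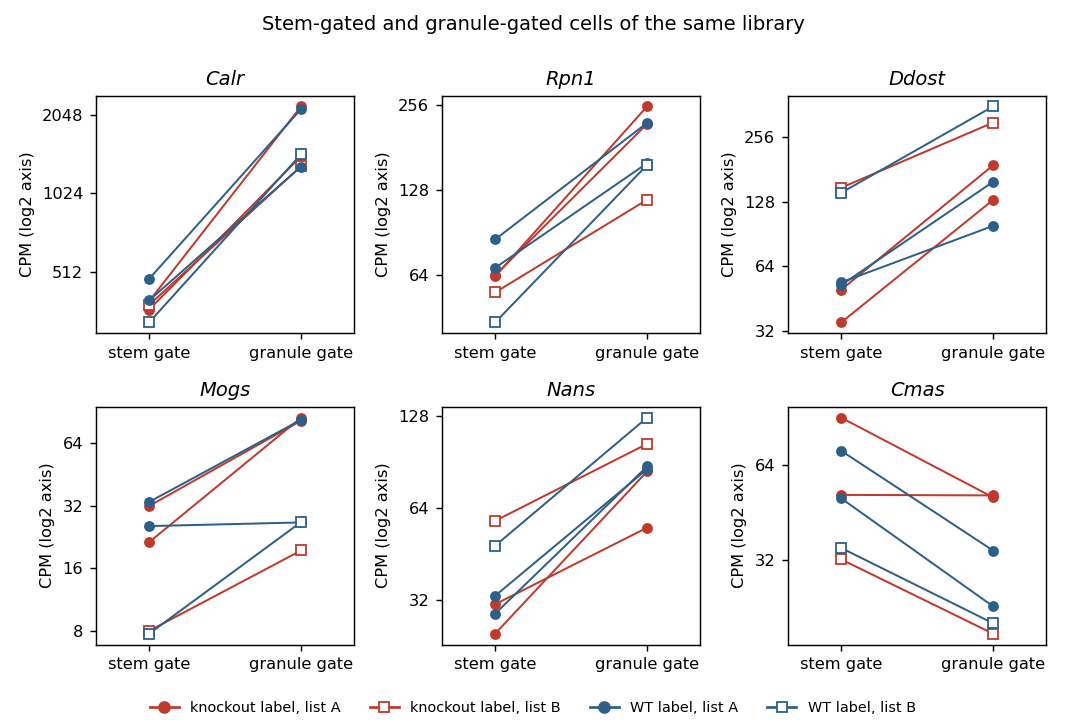
CPM (log2 axis) of 6 members in stem-gated and granule-gated cells, with a line for each of the 6 libraries (red knockout label, blue WT label; filled circles list A, open squares list B). Calr rises in every library from at most 481 to at least 1300 CPM, and Cmas falls or stays level.

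Of the 55 further genes of the pathway, taken from a separate list, 54 were tested. Of these, 24 were higher and 4 lower, with a median of 0.33. The higher ones included the small oligosaccharyltransferase subunits Ostc, Tmem258 and Krtcap2, the subunit Magt1, the ER degradation lectins Edem1, Edem2 and Edem3, the cargo receptors Lman1 and Lman2, and Pdia3, the partner of both ER lectins. The lower ones were Fpgt, Ngly1, Man1c1 and Galk2. Granule-gated cells also differed from stem-gated cells in depth and cycling: their median UMI count was 12376 to 20668 against 6261 to 9803, and 62.7% to 90.5% of them carried at least 3 of 12 mitotic genes against 16.9% to 32.5%. The part of depth and of cycling in the differences was not tested. With 1 marker fewer per gate, Man2a2 was no longer called (adjusted p = 0.0612, edgeR).

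Between lymphoid-gated and stem-gated cells, the widest differences among the called members were in branching and core fucose, with Mgat1, Mgat5 and Mgat4a higher and Fut8 lower. The fit held all 7 libraries (121 to 1780 lymphoid-gated cells each). Of 43 members tested, 17 were higher and 6 lower, against 26% and 22.6% of 11670 genes, with medians of 0.10 over the members and 0.01 over all genes. Mgat1, which adds the first N-acetylglucosamine and opens the way to hybrid and complex glycans, had a lowest, median and highest level of 84.4, 110 and 165 CPM in lymphoid-gated cells against 44.1, 64.5 and 86.7 CPM in stem-gated cells. It was higher in 7 of 7 libraries (log2 difference 0.88, SE 0.06, adjusted p = 1.71e-11, edgeR). Mgat5 had 155, 302 and 446 CPM against 76.8, 160 and 292 CPM and was higher in 7 of 7 (0.84, SE 0.05, adjusted p = 9.03e-14, edgeR). Mgat4a, which adds another branch, was higher by 0.55 (SE 0.09, adjusted p = 1.39e-05, edgeR). The ranges of all 3 genes overlapped between the gates across libraries, and the difference was seen within each library.

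Fut8 went the other way. In lymphoid-gated cells it stood at 725, 642 and 240 CPM in KO1 to KO3 and at 352, 405, 347 and 167 CPM in WT1 to WT4. In stem-gated cells of the same libraries it stood at 1290, 1939 and 468 CPM and at 842, 963, 622 and 243 CPM. Every library was lower in the lymphoid gate, and the ranges overlapped across libraries (log2 difference -1.03, SE 0.13, adjusted p = 0.000388, edgeR). Gmds, which feeds GDP-fucose to this step, was lower by -0.32 (SE 0.05, adjusted p = 1.39e-06, edgeR), and Cmas by -0.44 (SE 0.08, adjusted p = 4.78e-05, edgeR), while Nans was higher by 0.44 (SE 0.07, adjusted p = 3.3e-06, edgeR). Slc35a1, the CMP-sialic acid transporter, was lower by -0.25 (SE 0.09, adjusted p = 0.0164, edgeR), a call that was lost without KO3 or without WT1, with a highest adjusted p of 0.0887. Of the oligosaccharyltransferase subunits 5 of 6 were higher and of the ER trimming genes 5 of 7, both with a median of 0.20, and Calr differed by 0.14. Of the 55 further pathway genes, 13 were higher and 9 lower. The median depth of lymphoid-gated cells was 8480 to 11797 UMIs, and 26.1% to 51.7% of them were mitotic.

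In monocyte-dendritic-gated cells Mgat5, Calr and Rpn1 were higher and Fut8 lower than in stem-gated cells. The fit held KO1 to KO3, WT1 and WT4 with 25 to 113 such cells each. These cells also carried markers of other gates: in KO1, KO2, KO3, WT1 and WT4 the median cell had 4, 3, 4, 2 and 3 granule genes and 3, 3, 3, 2 and 3 lymphoid genes beside 5, 5, 4, 7 and 4 of its own list, so that in KO3 its own genes did not exceed the granule genes. Their part in the differences was not tested. Of 42 members tested (Alg12 did not pass the filter either), 16 were higher and 5 lower, against 18.9% and 18.2% of 10302 genes, with medians of 0.31 over the members and -0.01 over all genes. Mgat5 was at 263, 464 and 210 CPM in KO1 to KO3 and 201 and 161 CPM in WT1 and WT4, against 149, 222, 74.9, 157 and 88.6 CPM in their stem-gated cells (log2 difference 0.96, SE 0.12, adjusted p = 2.97e-06, edgeR). Rpn1 was higher by 0.81 (SE 0.13, adjusted p = 5.81e-05, edgeR), Calr by 0.80 (SE 0.10, adjusted p = 1.26e-06, edgeR) and Nans by 0.74 (SE 0.13, adjusted p = 9.82e-05, edgeR). Mgat1 was higher in 5 of 5 libraries by 0.69.

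In the same cells Fut8 was at 569, 618 and 277 CPM in KO1 to KO3 and 232 and 145 CPM in WT1 and WT4, against 1257, 1876, 456, 823 and 238 CPM in the stem gate. It was lower in each library (log2 difference -1.19, SE 0.16, adjusted p = 0.000164, edgeR). Gmds was lower by -0.46 (SE 0.11, adjusted p = 0.00171, edgeR). The falls of Cmas (-0.49, adjusted p = 0.0273) and Galt (-0.53, adjusted p = 0.039) depended on single libraries: the call of Cmas was lost without KO1, KO3 or WT4 and that of Galt without KO1, KO2, KO3 or WT4, with adjusted p up to 0.273 for Cmas and 0.173 for Galt (edgeR). Of the further pathway genes, 10 were higher and 2 lower of 49 tested. The count of members called, 21 in either direction beside 37.1% of all genes, moved with the gate as the count of all genes did. It was 3 with 1 marker fewer (12.6% of all genes), 32 when cells passing several gates were given to the gate with the highest share of its markers (53.4%), 13 without KO1 (26.5%) and 14 without KO2 (28.2%). The 3 comparisons above share their stem-gated cells, so their values are given side by side only.

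**Figure D2:**
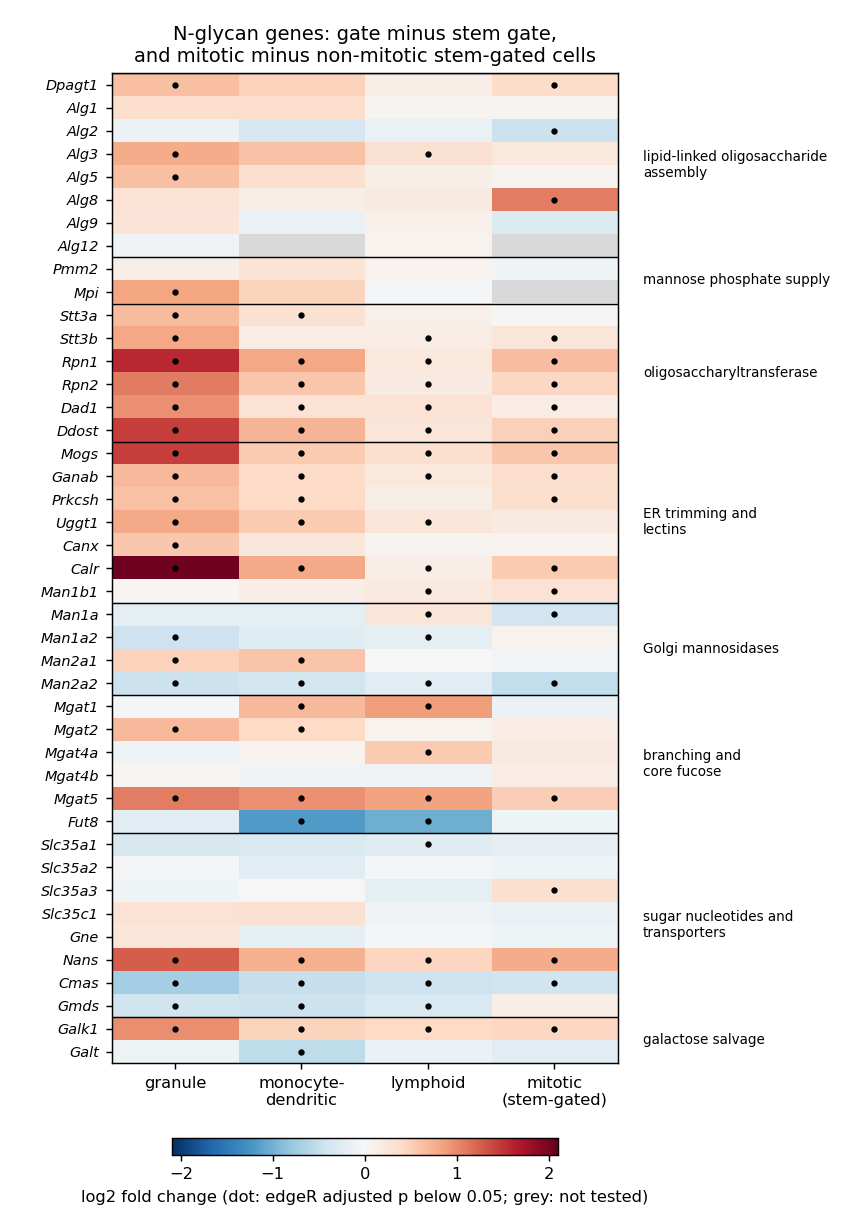
Log2 difference of each member tested in the 4 comparisons within libraries (3 gates against the stem gate, and mitotic against non-mitotic stem-gated cells), ordered by role, with red for higher and blue for lower in the first group of each comparison, dots on members that passed the test and grey where a member was not tested. The oligosaccharyltransferase and ER trimming rows are red in the granule column, where Calr reaches 2.04, and Fut8 is blue in the lymphoid and monocyte-dendritic columns.

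Within the stem gate, mitotic cells (at least 3 of 12 mitotic genes) had more of several ER members than cells with none of those genes. All 7 libraries entered. Of 41 members tested (Mgat3, Alg12 and Mpi did not pass the filter), 16 were higher and 4 lower, against 25.1% and 27% of 10236 genes, with medians of 0.15 over the members and -0.03 over all genes. With upper-quartile scaling the split was 14 higher and 9 lower for the members, and 2119 higher and 3605 lower for all genes against 2572 and 2759. Alg8, an ER glucosyltransferase of precursor assembly, had a lowest, median and highest level of 22.5, 31.1 and 44.6 CPM in mitotic cells against 11.9, 15.5 and 22.0 CPM in non-mitotic cells, with no overlap between the ranges (log2 difference 1.08, SE 0.12, adjusted p = 1.56e-10, edgeR). Calr had 443, 499 and 619 CPM against 282, 329 and 431 CPM, again without overlap, a log2 difference of 0.54 beside the 2.04 between the granule and stem gates. Nans was higher by 0.77 (SE 0.11, adjusted p = 2.66e-08, edgeR), Rpn1 by 0.65 (SE 0.08, adjusted p = 1.07e-09, edgeR) and Mogs by 0.58 (SE 0.14, adjusted p = 0.00035, edgeR).

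Lower in mitotic stem-gated cells were the Golgi mannosidases Man2a2 (-0.51, SE 0.09, adjusted p = 2.3e-06, edgeR) and Man1a (-0.40, SE 0.06, adjusted p = 2.03e-07, edgeR), Cmas (-0.41, SE 0.09, adjusted p = 8.17e-05, edgeR) and Alg2, an ER mannosyltransferase (-0.45, SE 0.11, adjusted p = 0.000846, edgeR). In the list A libraries alone Alg2 was not called (adjusted p = 0.232, edgeR). Fut8 had a log2 difference of -0.09 (adjusted p = 0.192, edgeR). Of the further pathway genes 19 were higher and 6 lower of 49 tested. Mitotic cells had median depths of 9929 to 15569 UMIs and non-mitotic cells 4505 to 7619, and the part of depth was not tested.

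The second question of the design is whether the label goes with a difference in these genes. Over all kept cells none of the 43 members passed the test, against 1.11% of 14608 genes. Other fits called 1 to 7 members, all higher in knockout-labelled libraries: DESeq2 called 7 (5.86% of genes), the fit with no gene filter 4 (2.17%) and list A alone 1 (Mogs, 2.44%). Mogs was also called without KO3 or without WT4. The members' fitted differences leaned to higher values in the knockout-labelled libraries: 33 of 43 were positive, with a median log2 difference of 0.27 against 0.01 over all genes. By role, the medians were 0.48 for the oligosaccharyltransferase, 0.34 for precursor assembly and 0.29 for ER trimming and lectins, and -0.09 for the Golgi mannosidases. In summed cells, fewer cells of a type and less RNA per cell cannot be told apart.

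Calr stood at 1429, 955 and 597 CPM in KO1 to KO3 and at 700, 508, 437 and 403 CPM in WT1 to WT4. KO3 lay below WT1, so the groups overlapped, while within each barcode list the knockout-labelled libraries were higher (log2 difference 0.96, SE 0.23, adjusted p = 0.0844, edgeR). Rpn1 stood at 181, 170 and 78.2 CPM against 116, 97.9, 71.6 and 58.7 CPM (0.74, SE 0.18, adjusted p = 0.0844, edgeR). Ddost had a log2 difference of 0.70 (adjusted p = 0.114, edgeR) and Mogs of 0.66 (adjusted p = 0.105, edgeR). Dpagt1 stood at 21.5, 20.5 and 24.3 CPM against 17.5, 16.1, 13.9 and 19.5 CPM (0.38, adjusted p = 0.14, edgeR, not called). Its label groups did not overlap over all 7 libraries, and the share of all genes without such overlap is not given here. Within both lists, 19 members had every knockout-labelled library above every WT library and 2 below, Mgat1 and Mgat4a, against 14.3% and 13.1% of all genes.

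The make-up of the libraries moved with the label. Granule-gated cells were 12.5%, 5.68% and 3.33% of kept cells in KO1 to KO3 and 1.69%, 1.19%, 1.33% and 1.20% in WT1 to WT4, with no overlap. With the several-gate cells given to their highest gate, granule- or monocyte-dendritic-assigned cells were 46.0%, 35.9% and 13.7% against 9.65%, 6.40%, 4.87% and 5.72%. Lymphoid-gated cells were 4.36%, 7.01% and 12.7% against 19.1% to 21.1%, while the mitotic shares overlapped at 33.4% to 50.03% against 29.3% to 41.1%.

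Leaving out the assigned granule and monocyte-dendritic cells moved the members' median label difference from 0.27 to -0.01, with 17 of 43 positive. Leaving out mitotic cells moved it to 0.03, with 27 positive. Leaving out only the cells in the stricter gates left it at 0.23, with 32 positive. The first and second of these sets were chosen after seeing the data. The medians over all genes in these fits are not given here. The part of cell make-up in the members' label difference was not tested. In stem-gated cells Calr stood at 425, 399 and 420 CPM against 519, 418, 426 and 358 CPM, and Rpn1 at 68.2, 69.6 and 61.1 CPM against 92.5, 84.8, 72.8 and 47.5 CPM. Both overlapped between labels, with log2 differences of -0.03 and -0.07.

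**Figure D3:**
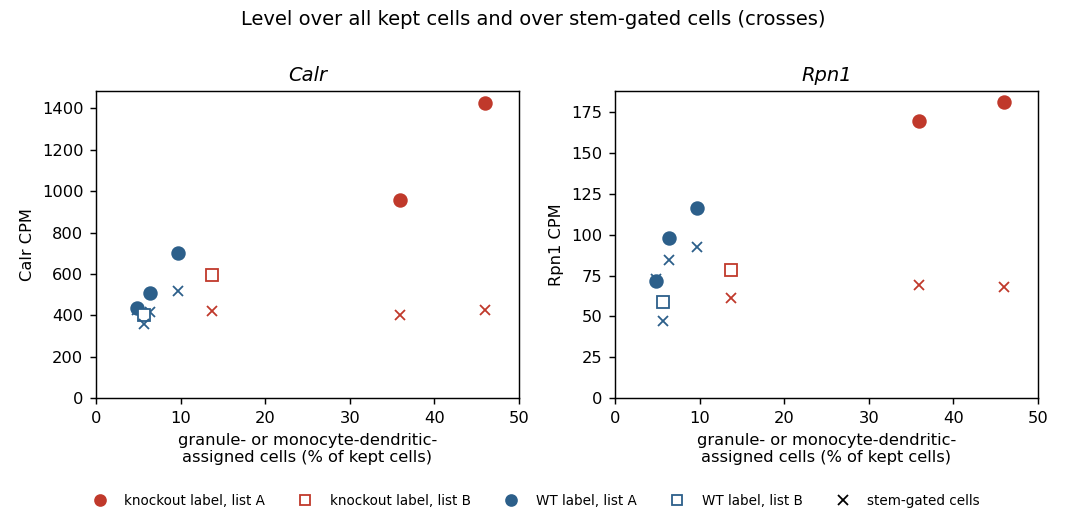
Level of Calr (left) and Rpn1 (right) in CPM against the share of granule- or monocyte-dendritic-assigned cells in each library, over all kept cells (circles and squares; red knockout label, blue WT label; filled list A, open list B) and over stem-gated cells (crosses). Over all kept cells KO1 and KO2, with 46.0% and 35.9% of such cells, have the highest levels, while the stem-gated levels of Calr lie between 358 and 519 CPM in all 7 libraries.

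Within gates the members' median label difference lay near 0, and Fut8 was the 1 member called. In stem-gated cells none of 43 members was called, against 0.0566% of 12368 genes. There, DESeq2 called 1, Fut8, and 0.243% of all genes. The median was -0.03 with 18 positive. In lymphoid-gated cells 1 of 43 was called, Fut8, against 0.411% of 11432 genes in either direction and 0.245% in the higher direction, and the median was 0.02. The comparison in granule-assigned cells was added after seeing that WT2 had only 14 granule-gated cells. None of 43 members was called there by edgeR or DESeq2, against 0.14% of 11411 genes. The median there was 0.06. Calr in granule-assigned cells stood at 2006, 1528 and 1134 CPM in KO1 to KO3 and at 1990, 1893, 952 and 1061 CPM in WT1 to WT4, and the groups overlapped.

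**Figure D4:**
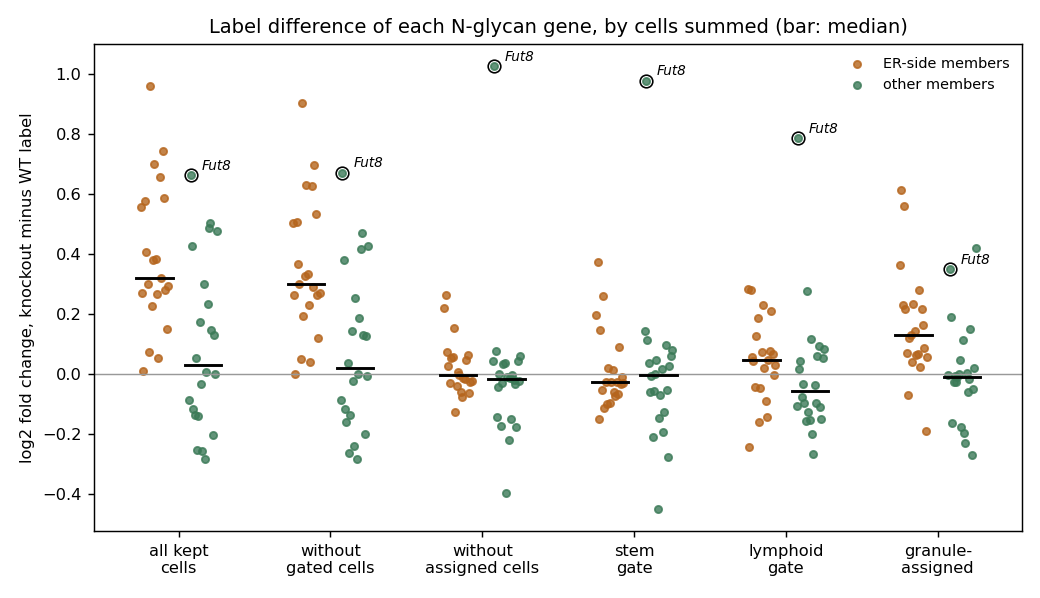
Log2 difference of each member tested, knockout label minus WT label, for 6 sets of cells (all kept cells, 2 sets without granule and monocyte-dendritic cells, and 3 gated or assigned groups), with ER-side members (precursor assembly, oligosaccharyltransferase, ER trimming and lectins) in brown, the others in green, and a bar at each median. The brown points center above 0 over all kept cells and near 0 without the assigned cells and in the stem gate, while Fut8 (ringed) stays near 1 in both.

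Fut8 lies on chromosome 12 (GRCm38 chr12:77238125-77476338, plus strand), away from B4galt1 on chromosome 4. The fucosyltransferase it encodes is the only known source of core fucose in mammals. In stem-gated cells it stood at 1298, 1958 and 494 CPM in KO1 to KO3 and at 858, 978, 625 and 255 CPM in WT1 to WT4. KO3 lay below WT1 to WT3, so the groups overlapped over all libraries, but in list A both knockout-labelled libraries were above all 3 WT libraries and in list B KO3 was above WT4. The log2 difference was 0.98 (SE 0.20, adjusted p = 0.142, edgeR), not called. It was the 1 member called by DESeq2 (adjusted p = 0.000586, 0.243% of all genes called), without the gene filter (adjusted p = 0.000516, 0.58% of genes) and with 1 marker more per gate (adjusted p = 0.0475, edgeR, 0.164% of genes).

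In lymphoid-gated cells Fut8 stood at 707, 628 and 235 CPM against 343, 395, 339 and 163 CPM, with the same order within each list. It was called at a log2 difference of 0.79 (SE 0.14, adjusted p = 0.0164, edgeR). The call was lost without KO1, KO3, WT1, WT3 or WT4, with adjusted p from 0.0536 to 0.0662 and differences from 0.68 to 0.89, with 1 marker more per gate (adjusted p = 0.180), in list A alone (adjusted p = 0.0682), with the replicate number as a block (adjusted p = 0.824, difference 0.40), and without the list covariate (adjusted p = 1.00, difference 0.75, edgeR). Over all kept cells it stood at 719, 988 and 396 CPM against 594, 661, 491 and 208 CPM (0.66, SE 0.19, adjusted p = 0.123, edgeR). Without the assigned granule and monocyte-dendritic cells the difference was 1.03 (adjusted p = 0.0262, edgeR), and without mitotic cells 1.02 (adjusted p = 0.0375, edgeR). It was the only member called in each of these 2 fits, which called 0.432% and 0.482% of all genes. In granule-assigned cells the values were 554, 782 and 405 CPM against 512, 616, 639 and 242 CPM (0.35, not called). Whether the label difference of Fut8 differs between gates was not tested.

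Markers of other gates and mitotic genes moved with the label inside the gates. The 9 granule genes, all detected, summed to 667 to 792 CPM in stem-gated cells of the knockout-labelled libraries and to 311 to 569 CPM in those of the WT libraries, and to 1059 to 1610 against 582 to 894 CPM in lymphoid-gated cells. In lymphoid-gated cells the 10 monocyte-dendritic genes summed to 322 to 514 against 239 to 302 CPM. The 12 mitotic genes there went the other way, at 1046 to 1264 against 1464 to 1567 CPM. In stem-gated cells the sums of both these lists overlapped between labels. The part of the 3 lists in the Fut8 difference was not tested. Against the stem gate, Fut8 had log2 differences of -0.24 in the granule gate and -1.19 in the monocyte-dendritic gate. Its difference between mitotic and non-mitotic stem-gated cells is given above. An antisense gene, 9530018F02Rik, overlaps Fut8, and how the counting used strand is not given in the sources used here, so reads of these genes may not be told apart. The same holds for 12 other members that overlap an opposite-strand gene alone, among them Nans, Mgat5, Gmds, Man2a2, Man1a, Rpn2, Dpagt1 and Alg3. Man1a2 overlaps 4 genes on its own strand, so its counts are uncertain.

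**Figure D5:**
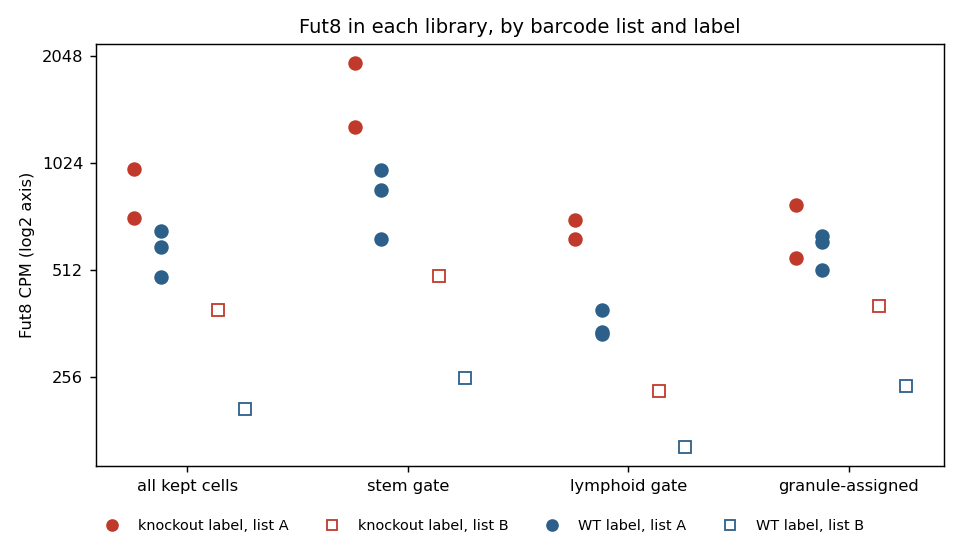
Fut8 level (CPM, log2 axis) in each library over all kept cells and in 3 cell groups, by label (red knockout, blue WT) and barcode list (filled list A, open list B). List B libraries lie below list A libraries of the same label, and within each list the knockout-labelled libraries lie above the WT libraries in every set except granule-assigned cells of list A.

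Mgat1 had the opposite order in stem-gated cells, at 45.2, 44.5 and 80.3 CPM in KO1 to KO3 and 58.3, 79.9, 64.8 and 90.7 CPM in WT1 to WT4. It was lower within both lists and overlapped over all libraries (log2 difference -0.45, SE 0.15, adjusted p = 0.762, edgeR). Mgat2, which makes the branch end after that of Mgat1, had log2 differences of 0.30 over all kept cells (adjusted p = 0.373) and -0.15 in stem-gated cells (adjusted p = 1.00, edgeR). Slc35a2, the UDP-galactose transporter of the Golgi, stood at 12.8, 14.2 and 20.1 CPM against 11.6, 11.9, 11.1 and 21.0 CPM over all kept cells (0.13, adjusted p = 0.589, edgeR).

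Members that lie near B4galt1 on chromosome 4 were listed by position. There are 5 within 10 Mb of its position (GRCm38 chr4:40804602-40854005): Galt at 0.90 Mb, Gne at 3.18 Mb, Nans at 5.64 Mb and Alg2 at 6.61 Mb on 1 side, and Slc35a1 at -6.12 Mb on the other. Over all kept cells their log2 label differences were -0.12 for Galt (adjusted p = 0.694), 0.06 for Gne (adjusted p = 0.849), 0.50 for Nans (adjusted p = 0.156), 0.01 for Alg2 (adjusted p = 0.975) and -0.20 for Slc35a1 (adjusted p = 0.426, edgeR). Nans, at 63.8, 50.2 and 78.4 CPM against 48.3, 33.8, 32.4 and 63.1 CPM, overlapped over all libraries. In stem-gated cells the 5 differences lay between -0.28 for Slc35a1 and 0.10 for Nans, and in lymphoid-gated cells between -0.11 for Slc35a1 and 0.28 for Alg2. In lymphoid-gated cells Slc35a2 differed by -0.15, Mgat1 by -0.15 and Mgat2 by 0.12, and none of these was called.

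The barcode list set several members further apart than the label did. Mean CPM over all kept cells was compared between list B and list A libraries for the 43 members. The share of all genes set as far apart as the members named here was not computed. Lowest in list B was Mogs (12.04 against 47.3 CPM, log2 ratio -1.97), followed by Man2a1 (-1.50), Mgat5 (-1.33) and Uggt1 (-1.28). Highest was Galt (36.9 against 10.3 CPM, 1.85), followed by Alg3 (1.30 on the log2 scale) and Ddost (1.23). Fut8 was lower in list B at 302 against 690 CPM (-1.19). The lists differ in more than barcodes, since the cell filter kept 96.2% to 98.3% of the deposited barcodes of KO3 and WT4 but 32.4% to 49.9% of those of the other 5 libraries, and what else separates them is not given in the sources used here. Galt shares same-strand sequence with Il11ra1, so its counts are uncertain.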

How the data were processed

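The authors deposited raw UMI counts per gene and barcode for each library, made from 3′ single-cell libraries (Single Cell 3′ v2 kit, per the labels' protocols). The labels name this kit for every library, yet KO3 and WT4 used list B and the other libraries list A. Whether the same kit was used for list A and list B cannot be checked from the sources used here. The submitters' processing notes name Cell Ranger 7.0.0, Seurat 4.4.0 and mm10, and whether intronic reads were counted is not given in the sources used here. The members and marker lists, the gates and the list covariate were chosen with earlier results of these data known. No sample column was left unused (0). No doublet caller was run, and cells passing several gates were left out instead.

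Counts were summed per library over the cells of a group and tested with edgeR 4.0.16 in R 4.3.3 (TMM scaling, its default filter on low counts, robust quasi-likelihood F test, two-sided), with p-values adjusted over all genes tested and a threshold of 0.05. Label fits used the barcode list as a covariate and gate fits the library as a block, with at least 20 cells per library and group. CPM values carry the TMM scaling of their own fit. In the 3 planned label fits, differences are given for members within 10 Mb of B4galt1 and for Slc35a2, Mgat1 and Mgat2. In every comparison, up to 4 called rises and up to 4 called falls with a mean of at least 5 CPM get an error and a test. Other called members are named with the difference only, and Fut8, Calr, Rpn1, Ddost and Mogs in the label fits were added after their values were seen. Gene positions are from GENCODE M21 on GRCm38. The tests were tried on simulated data first. Alternatives were DESeq2 1.42.0, upper-quartile scaling, no gene filter, no covariate or block, list A alone, other cell filters and gates, and each library left out. The depth of 14970791 to 89747946 UMIs per library sets the counting error, and Mgat3 was too low to test. The label comparison in granule-gated cells was not run, because WT2 had 14 such cells, nor were the megakaryocyte and erythroid gates against the stem gate, where only 2 libraries had 20 cells.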

Additional observations from a re-analysis of the deposited data

Results flagged for a closer look

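Of 67 sets of 4 to 7 libraries checked for a library far from the others, 7 held one, where chance gives about 1 in 20 for a single set. The sets share libraries and genes and are not independent, so the count is a description and not a test. In 5 of the 7 the library was WT4, the only WT library on barcode list B. Over all kept cells, Galt stood at 38.5 CPM in WT4 against 10.1 to 11.3 CPM in the other WT libraries, and Slc35a2 at 21.0 against 11.1 to 11.9 CPM. Galt in WT4 was also high in stem-gated cells (41.8 against at most 13.9 CPM) and in lymphoid-gated cells (37.3 against at most 11.4 CPM), as was Slc35a1 in lymphoid-gated cells (41.1 against at most 22.3 CPM). KO3, on the same list, had a similar Galt level over all kept cells, 35.3 CPM.

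Both other cases were ratios of granule-gated to stem-gated cells. The log2 ratio of Mogs was 0.059 in WT3, which had 20 granule-gated cells, and 1.29 to 2.00 in the other 5 libraries. The log2 ratio of Cmas was -0.0050 in KO2, which had 98 granule-gated cells, and -0.79 or lower in the other 5.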

How the results depend on the processing

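For single members, 579 of 675 values under other settings kept their direction and their side of the threshold, 43 lost the call, 15 gained it and 38 changed sign. With 1 library left out, 396 of 445 kept both, and 33 changed sign. Every sign change was in a label comparison and none of those values was called. The cause of these changes was not tested.

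Among the counts of members called, the label comparison over all kept cells gave 0 and moved to 7 with DESeq2, 4 with no gene filter and 1 each in list A alone, without mitotic cells and without granule- and monocyte-dendritic-assigned cells (0 to 1 with a library left out, 1 without KO3 or without WT4). In stem-gated cells it moved from 0 to 1 with DESeq2, with no gene filter and with 1 marker more (0 with any library left out). In lymphoid-gated cells it moved from 1 to 0 with no covariate, in list A alone, with the replicate block and with 1 marker more (0 to 1 with a library left out). In granule-assigned cells it was 0 throughout.

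Without the library as a block, counts fell from 25 to 13 for granule against stem (all genes called from 53.9% to 22.9%), 21 to 0 for monocyte-dendritic against stem (37.1% to 6.19%), 23 to 1 for lymphoid against stem (48.6% to 8.56%) and 20 to 3 for mitotic against non-mitotic cells (52.1% to 10.1%). With a library left out they ran from 24 to 25, 13 to 22, 20 to 24 and 15 to 21. The monocyte-dendritic count was 3 with 1 marker fewer and 32 with several-gate cells assigned.

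Replicate numbers did not pair all the libraries. Deviations from the group means correlated at 0.53 for KO1 and WT1, against at most 0.33 for KO1 and another WT library. For KO2 and WT2 the value was 0.72, against at most 0.50 for KO2 and another WT library. KO3 correlated at -0.36 with WT3, which is on the other barcode list, and at 0.89 with WT4, on its own list. With the replicate block, log2 differences changed sign for Slc35a1 (0.099) and Galt (0.48) over all kept cells, Alg2 (0.021) in stem-gated cells, Slc35a1 (0.28), Slc35a2 (0.20) and Mgat1 (0.058) in lymphoid-gated cells, and Fut8 (-0.063) and Calr (-0.015) in granule-assigned cells.

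Other sign changes over all kept cells were Gne -0.060 and Alg2 -0.10 in list A alone, Gne -0.014 and Alg2 -0.024 without mitotic cells, Gne -0.00061, Nans -0.020, Mgat2 -0.0098 and Mogs -0.013 without assigned cells, Alg2 -0.0010 without the gated cells, Alg2 -0.041 with upper-quartile scaling and Galt 0.047 with no covariate. In stem-gated cells they were Nans -0.0061 in list A alone, Gne 0.0080 at 3000 UMIs or more, Gne 0.066, Slc35a2 -0.055, Calr 0.043 and Rpn1 0.077 with 1 marker more, and Gne 0.037 and Rpn1 0.041 with 1 fewer. In lymphoid-gated cells they were Slc35a1 0.0048, Nans -0.057 and Slc35a2 0.048 in list A alone, Slc35a1 0.014 with no covariate, Nans -0.041, Galt -0.23 and Mgat1 0.013 with 1 marker more, and Gne 0.029, Nans -0.0058, Galt -0.26 and Mgat2 -0.054 with 1 fewer.

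With 1 library left out, ranges that crossed 0 were -0.052 to 0.15 for Gne, -0.096 to 0.076 for Alg2 and -0.30 to 0.030 for Galt over all kept cells. In stem-gated cells they were -0.13 to 0.11 for Gne, -0.0041 to 0.23 for Nans, -0.12 to 0.16 for Galt, -0.047 to 0.096 for Slc35a2, -0.14 to 0.057 for Calr and -0.27 to 0.026 for Rpn1. In lymphoid-gated cells they were -0.32 to 0.0051 for Slc35a1, -0.34 to 0.091 for Gne, -0.059 to 0.13 for Nans, -0.17 to 0.25 for Galt, -0.45 to 0.048 for Slc35a2 and -0.021 to 0.20 for Mgat2. In granule-assigned cells it was -0.060 to 0.24 for Calr. Alternatives for the comparisons that were not run could not be made.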

Other observations

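Erythroid-gated cells (at least 3 of 9 erythroid genes) and megakaryocyte-gated cells (at least 4 of 12 genes) were too few to compare over libraries, and KO3 and WT4 alone held at least 20 of each. Without a test, the 6 oligosaccharyltransferase subunits summed to 1029 and 1273 CPM in the erythroid-gated cells of KO3 and WT4 and to 971 and 917 CPM in the megakaryocyte-gated ones, against 776 and 713 CPM in their stem-gated cells. Rpn1 was at 85.7 and 112 CPM in erythroid-gated and 103 and 86.3 CPM in megakaryocyte-gated cells, against 58.0 and 45.4 CPM in the stem gate. Nans was at 94 and 133 CPM and at 98.8 and 92.0 CPM, against 60.8 and 50.4 CPM. The Golgi mannosidases summed to 170 and 145 CPM in the erythroid gate and to 201 and 193 CPM in the megakaryocyte gate, against 257 and 303 CPM in the stem gate. Man1a alone was at 63.1 and 33.0 CPM and at 86.1 and 86.3 CPM, against 137 and 179 CPM. Mgat1 was at 48.8 and 52.0 CPM and at 48.1 and 54.6 CPM, against 76.3 and 86.7 CPM. These levels were scaled by TMM over all gates together, and without that scaling each of the 4 genes lay on the same side of its stem-gated level in both libraries. The counts behind these values are small, with 53 and 61 UMIs of Man1a in the erythroid-gated cells, and intervals were not computed.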
